A study of Mus musculus with 6 samples.

Results

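The genes described here are 10 components of the Notch pathway (the receptors Notch1, Notch2 and Notch3, the ligands Dll1, Jag1 and Jag2, and the target and feedback genes Hes1, Hey1, Heyl and Nrarp), chosen by name out of 24809 genes in the table. They and the further lists below were chosen with earlier results of these data known, so counts among them describe these lists only. All 10 were found, each as a single RefSeq transcript. They were measured by RNA sequencing in C2C12, a mouse myoblast line that fuses into myotubes when serum is withdrawn, labelled as myoblasts of control genotype (n = 3 libraries) or with Msx1 overexpression (n = 3 libraries). The control columns of the table are headed with the word vector. The sources used here do not say how Msx1 was introduced, whether a clone or a pool of cells was used, how dense the cells were or whether they were dividing or differentiating, and any such difference between the groups and Msx1 itself cannot be told apart. Whether each library had its own culture is not stated either, and the p-values describe the spread among these 6 libraries, which may be technical.

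Notch receptors are membrane proteins that are cut when a Delta-like or Jagged ligand on a neighbouring cell binds them, and the freed intracellular domain joins the DNA-binding protein Rbpj in the nucleus to switch on genes of the Hes and Hey families of repressors. In muscle precursors, Notch signalling is known for holding cells undifferentiated and for keeping satellite cells quiescent. Msx1 encodes a homeodomain protein that is likewise known to hold back myogenic differentiation.

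Msx1 itself stood at 7.55 ± 0.431 FPKM in control libraries and at 953 ± 46.6 FPKM in Msx1 libraries (SD, n = 3 each), where FPKM is the level of a transcript scaled to its length and to the library's size. All 7 myoblast markers listed had a mean of at least 1 FPKM, with sums of 252 to 255 (control) and 218 to 231 FPKM (Msx1), mostly from Des. Of the 7, 1 rose (Chrnb1, from 7.00 ± 0.279 to 9.54 ± 0.129 FPKM) and 3 fell. Myf5, an early myogenic factor, fell from 9.01 ± 0.396 to 1.64 ± 0.0968 FPKM. Des (140 ± 0.668 to 116 ± 4.89 FPKM) and Chrna1 (23.3 ± 1.07 to 20.6 ± 0.701 FPKM) fell by less. Myod1, Cdh15 and Itga7 were not called. Sums of 7 myotube markers were 12.1 to 15.6 and 52.0 to 55.6 FPKM. Of these, 5 of the 5 tested rose: Myog, Acta1, Tnnt1, Tnnt3 and Mymk. Too low to be tested, Myh3 (0.142 and 0.364 FPKM) and Ckm (0.211 and 0.110 FPKM, groups overlapping) went opposite ways. Blood and macrophage markers summed to 2.84 to 3.63 and 1.13 to 1.42 FPKM (mostly Cd68, with Ptprc and Adgre1 at 0), mural markers to at most 0.145 FPKM in control and to 1.77 to 2.30 FPKM (mostly Kcnj8), and glial markers to 0.282 to 0.549 and 0.657 to 0.681 FPKM (Sox10 at 0). Depth was not recorded, and steps among the low values put it roughly at 18.7 to 24.1 M fragments per library or at double that. Of 12371 genes tested with limma on log2(FPKM + 1), 54.4% had an adjusted p under 0.05, 22.0% higher and 32.4% lower in Msx1 libraries. The higher and lower shares were 26.7% and 25.8% with median-of-ratios scaling, 28.3% and 22.7% with totals made equal apart from Msx1, and 29.3% and 27.9% with a correction for transcript length and GC content. They were 16.4% and 23.7% with transcripts tested separately and the most abundant of each gene kept. They were 28.4% and 42.5% with sample weights, 21.8% and 32.8% with the replicate block and 23.0% and 34.3% without control replicate 1.

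In Msx1 cells the transcripts of Hes1, Nrarp, the ligands Dll1, Jag1 and Jag2 and the receptors Notch1 and Notch2 were higher. Those of Hey1 and Heyl were lower. Hes1 was 4.28-fold higher, Jag1 2.60-fold, Dll1 2.35-fold and Notch1 1.91-fold (ratios of group means, n = 3 each). Notch2 and Jag2 differed by a factor of 1.29 and 1.30, and Notch3 did not pass the test. Hey1 was 4.31-fold lower and Heyl 1.60-fold lower, at levels under 1 FPKM. The 8 genes that averaged at least 0.5 FPKM over the 6 libraries entered the main test, where 7 rose, 0 fell and 1 was not called, beside the 22.0% of genes tested that rose. The minimum bears on this count: Nrarp passed it only through its higher Msx1 libraries, and Hey1 missed it through its lower Msx1 libraries. The choice of the 10 genes with earlier results known bears on it too. The groups did not overlap for 7 of the 8, all higher, and Hey1 and Heyl were lower without overlap. Of the genes tested, a set that leaves out Hey1 and Heyl, 62.3% did not overlap, 25.5% higher and 36.8% lower. With all 10 tested without a minimum level, among 18181 genes, 6 rose and 2 fell, beside 16.5% higher and 22.7% lower (39.3% in all) over those genes. The median log2(FPKM + 1) difference was 0.37 over all 10 genes and -0.02 over the 18181. In bulk RNA, fewer cells that express a gene and less of its RNA per cell cannot be told apart.

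**Figure D1:**
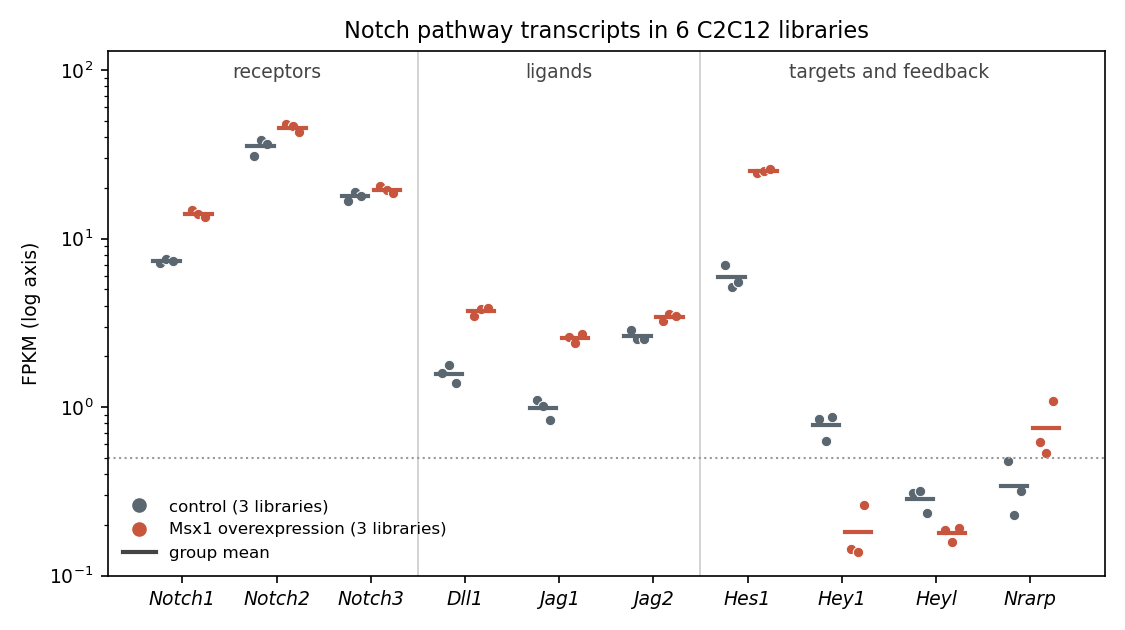
FPKM on a log axis of the 10 Notch genes in each of the 3 control (grey) and 3 Msx1 (red) libraries, with horizontal bars at the group means and a dotted line at the minimum mean of 0.5 FPKM for testing. Hes1 lies between 5.15 and 7.00 FPKM in control and between 24.5 and 25.9 FPKM in Msx1 libraries, whereas the Hey1 points of the Msx1 libraries lie below all control points.

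Among the receptors, Notch2 was the most abundant. It read 31.1, 38.4 and 36.3 FPKM in control replicates 1, 2 and 3 and 47.6, 46.2 and 42.6 FPKM in Msx1 replicates 1, 2 and 3. All Msx1 libraries were above all control libraries, and the control libraries were the more uneven. The log2(FPKM + 1) change was 0.36 (SE 0.08, limma adjusted p = 0.00735).

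Notch1, the receptor first tied to T cell leukaemia, read 7.13, 7.58 and 7.33 FPKM in control libraries and 14.7, 14.0 and 13.5 FPKM in Msx1 libraries. The groups were far apart compared with their spread (log2 change 0.85, SE 0.06, limma adjusted p = 1.03e-05). A larger positive change was seen in 5.27% of genes tested.

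Notch3, known from mural cells of vessels and also present in muscle precursors, read 16.8, 18.8 and 17.9 FPKM in control and 20.5, 19.4 and 18.6 FPKM in Msx1 libraries. Msx1 replicate 3 lay below control replicate 2, so the groups overlapped. The log2 change was 0.13 (SE 0.06) with a limma adjusted p of 0.125. It passed after median-of-ratios scaling (0.20, adjusted p = 0.0287), with totals made equal apart from Msx1 (0.23, adjusted p = 0.0409) and with sample weights (0.13, adjusted p = 0.0185), whereas the length and GC correction gave -4.03e-06 (adjusted p = 1.00). Over 18 settings the adjusted p ranged from 0.0185 to 1.00. The Notch3 transcript holds 59.6% GC against a median of 50.6% over genes tested, and the part of GC content in the difference was not tested.

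Notch4, the endothelial receptor, read 0.115, 0.172 and 0.308 FPKM in control libraries and 0.533, 0.590 and 0.602 FPKM in Msx1 libraries, below the minimum for the main test. Without the minimum its log2 change was 0.40 (limma adjusted p = 0.00352). The 6 endothelial markers summed to 0.261 to 0.273 FPKM (control) and 0.523 to 0.948 FPKM (Msx1), and their levels went both ways. Cdh5 was at 0.118 ± 0.0182 and 0.556 ± 0.168 FPKM and Kdr at 0.00927 ± 0.00995 and 0.114 ± 0.0125 FPKM, whereas Tek was at 0.0614 ± 0.0194 and 0.0230 ± 0.0203 FPKM (n = 3 each). Pecam1, at 0.0603 ± 0.0153 and 0.0220 ± 0.0272 FPKM, was also lower on average, Tie1 and Emcn were each at 0 in at least 3 of 6 libraries, and 0 of the 6 markers had a mean of 1 FPKM. Their part in the Notch4 difference was not tested.

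The mixture of receptors was compared within libraries, a measure that does not depend on how libraries are scaled. Notch1 made up 12.9, 11.7 and 11.8% of the summed FPKM of Notch1 to Notch4 in control and 17.7, 17.4 and 17.9% in Msx1 libraries. Notch3 made up 30.5, 28.9 and 28.9% in control and a lower 24.6, 24.2 and 24.7% in Msx1 libraries. Neither pair of groups overlapped. The shares of a library depend on each other, so a share can be lower because other receptors were higher. The FPKM of Notch3 itself was not lower, at 17.8 ± 0.998 in control and 19.5 ± 0.971 in Msx1 libraries. The Notch1 and Notch3 shares are thus not separate results. The Notch2 share was 58.1 ± 1.48% and 57.1 ± 0.506% (n = 3 each) with overlapping groups. Exact two-sided permutation tests gave p = 0.1 for the Notch1 and Notch3 shares, the smallest that 3 against 3 libraries allow, and p = 0.4 for Notch2 (0.125, 0.125 and 0.4 adjusted over the 10 ratios and shares computed). All receptors together summed to 60.6 ± 5.04 FPKM (control) and 79.6 ± 4.05 FPKM (Msx1).

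The ligands were less abundant than the receptors. Dll1, the Delta-like ligand that muscle progenitors need to stay undifferentiated, read 1.59, 1.77 and 1.38 FPKM in control and 3.45, 3.83 and 3.85 FPKM in Msx1 libraries. Every Msx1 value lay well above the control values (log2 change 0.87, SE 0.08, limma adjusted p = 5.91e-05).

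Jag1, the Jagged ligand mutated in Alagille syndrome, read 1.10, 1.02 and 0.841 FPKM in control and 2.59, 2.40 and 2.72 FPKM in Msx1 libraries. Here too the groups were apart (log2 change 0.85, SE 0.08, limma adjusted p = 6.52e-05). On the log2(FPKM + 1) scale Dll1 and Jag1 changed by nearly equal amounts, and their log2 ratio within a library was 0.68 ± 0.136 in control and 0.53 ± 0.134 in Msx1 libraries (exact two-sided permutation p = 0.2, n = 3 each).

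Jag2, the other Jagged ligand, read 2.86, 2.54 and 2.52 FPKM in control and 3.25, 3.56 and 3.47 FPKM in Msx1 libraries. The values did not overlap but lay close together (log2 change 0.28, SE 0.07, limma adjusted p = 0.0102). That call was lost after the length and GC correction (0.12, adjusted p = 0.129) and with transcripts tested separately (0.28, adjusted p = 0.0560), in a range of 0.000407 to 0.129 over 18 settings. The Jag2 transcript holds 61.9% GC, the highest of the 10. Jag2 was 2.68 times as abundant as Jag1 in control and 1.33 times in Msx1 libraries (geometric means of the within-library ratio), without overlap (exact two-sided permutation p = 0.1, the smallest possible; 0.125 adjusted).

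The other canonical ligands were near 0. Dll4, the Delta-like ligand of sprouting vessels, was listed at 0 in all 3 control libraries and at 0.217, 0.298 and 0.249 FPKM in Msx1 libraries. Dll3 was between 0 and 0.0997 FPKM in all libraries. The 5 canonical ligands together summed to 5.24 ± 0.436 FPKM (control) and 9.97 ± 0.409 FPKM (Msx1; n = 3 each, exact two-sided permutation p = 0.1).

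**Figure D2:**
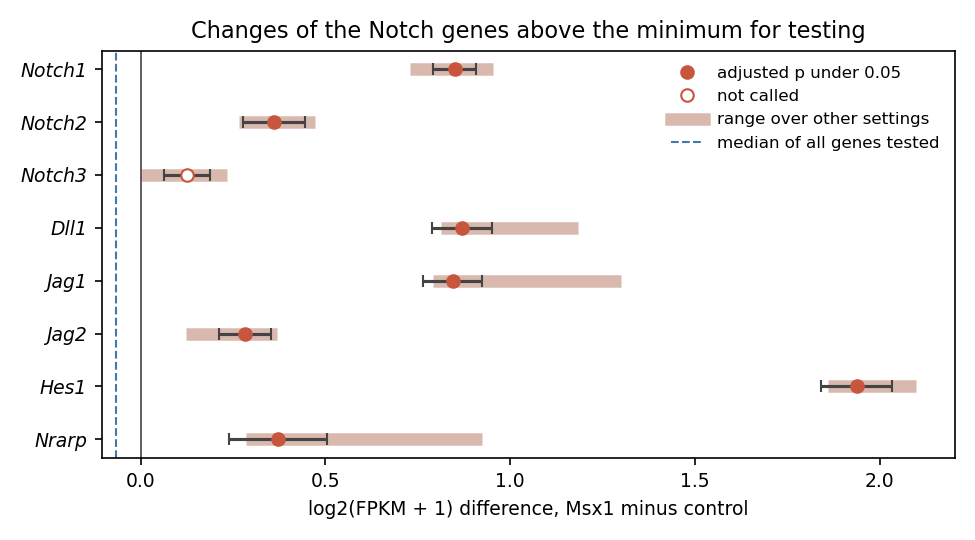
Difference in log2(FPKM + 1), Msx1 minus control, with the moderated standard error of limma, for the 8 Notch genes above the minimum for testing (filled points, adjusted p under 0.05; open point, not called). Pale bands span the values under the other settings, including other pseudocounts, and the dashed line marks the median of all genes tested at -0.07, to the left of all 8 genes.

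The 250 bases before the annotated starts are shown for some of the genes called higher in these data, from RefSeq on GRCm38.p6. They are Notch1 (chr2:26503823-26504072, minus strand), Dll1 (chr17:15376933-15377182, minus strand), Jag1 (chr2:137116521-137116770, minus strand) and Nrarp (chr2:25180508-25180757, plus strand). Each is written 5′ to 3′ in the direction of the gene. Notch2 and Jag2 were also called higher, and their windows are not shown. Capitals mark CAGCTG, an E-box sequence of the kind that myogenic bHLH factors bind, which reads the same on both strands.
Notch1: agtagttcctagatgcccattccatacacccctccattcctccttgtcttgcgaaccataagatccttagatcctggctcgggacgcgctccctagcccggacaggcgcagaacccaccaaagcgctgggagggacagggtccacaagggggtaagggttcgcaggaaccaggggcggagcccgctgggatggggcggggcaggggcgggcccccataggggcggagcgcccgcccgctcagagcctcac
Dll1: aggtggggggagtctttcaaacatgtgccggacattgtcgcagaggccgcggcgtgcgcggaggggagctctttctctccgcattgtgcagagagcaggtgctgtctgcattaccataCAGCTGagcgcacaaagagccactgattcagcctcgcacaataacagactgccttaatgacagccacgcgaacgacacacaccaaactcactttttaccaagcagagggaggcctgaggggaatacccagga
Jag1: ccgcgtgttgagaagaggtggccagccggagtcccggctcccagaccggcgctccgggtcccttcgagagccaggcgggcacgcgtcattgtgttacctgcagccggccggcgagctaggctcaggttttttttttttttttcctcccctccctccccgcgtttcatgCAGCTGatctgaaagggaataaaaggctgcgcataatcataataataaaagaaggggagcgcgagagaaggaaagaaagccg
Nrarp: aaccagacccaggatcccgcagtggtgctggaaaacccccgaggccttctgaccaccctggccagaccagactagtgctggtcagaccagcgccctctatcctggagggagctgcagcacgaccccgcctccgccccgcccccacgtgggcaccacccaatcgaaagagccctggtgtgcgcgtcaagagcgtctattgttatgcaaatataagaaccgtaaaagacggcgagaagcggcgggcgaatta
Windows were found for 7 of the 10 genes, 8 windows in all, and no entry was found for Hes1, Hey1 and Heyl. CAGCTG occurred once in the Jag1 window, starting 82 bases before the gene's start, and once in the Dll1 window shown, starting 132 bases before it. The other Dll1 window and those of Notch1, Notch2, Notch3, Jag2 and Nrarp had none, so 2 of the 8 windows held it. Of the Dll1 windows, the one that held it is shown, so the sequences shown do not give its frequency. It was present in 13.0% of the 32851 RefSeq windows of this length. The core of the Rbpj site, TGGGAA on either strand, was in 0 of the 8 windows and in 21.6% of all windows. The sequence TAATTG on either strand, a homeodomain site known to be bound by Msx proteins, was in 0 of the 8 and in 7.17% of all windows. A match is a description of the letters and not a bound site, and with 1 motif at most in a window none overlapped another.

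The targets did not move as one. Hes1, a bHLH repressor and the best known Notch target, read 7.00, 5.15 and 5.53 FPKM in control and 24.5, 25.3 and 25.9 FPKM in Msx1 libraries. The lowest Msx1 library was more than 3 times the highest control library, and control replicate 1 stood above the other control libraries. The log2 change was 1.94 (SE 0.10, limma adjusted p = 1.93e-06), and 1.33% of genes tested had a larger positive change. A call of higher with a log2 change of at least 1 was reached by 4.17% of genes tested, and among the 10 Notch genes by Hes1 alone with the pseudocount of 1. With a pseudocount of 0.5, Dll1 (1.02) and Jag1 (1.05) reached it too. The summed myotube markers given above moved in the same libraries, and their part in the Hes1 difference was not tested.

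Hey1, a related bHLH repressor that is a direct Notch target in myoblasts, went the other way. It read 0.853, 0.629 and 0.871 FPKM in control and 0.143, 0.139 and 0.264 FPKM in Msx1 libraries. The highest Msx1 library was below the lowest control library. Its mean of 0.483 FPKM over the 6 libraries fell just short of the minimum for the main test. Tested without a minimum, Hey1 fell by 0.59 on the log2(FPKM + 1) scale (SE 0.07, limma adjusted p = 0.00114). That call held in 10 of 10 refits without a minimum, which used other scalings, the length and GC correction or left out a library (adjusted p from 4.88e-04 to 0.00683). At the lower depth estimate these levels stand for about 28.4 to 50.8 fragments per control library and 7.69 to 13.5 per Msx1 library.

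Heyl, the third member of the Hey family, read 0.310, 0.316 and 0.235 FPKM in control and 0.186, 0.159 and 0.191 FPKM in Msx1 libraries. The groups did not overlap, with about 25.6 to 32.2 fragments per control and 16.7 to 18.7 per Msx1 library at the lower depth estimate. Without a minimum its log2 change was -0.13 (SE 0.03, limma adjusted p = 0.0245). The call was lost with totals made equal apart from Msx1 (adjusted p = 0.0503) and without control replicate 1 (0.0664), control replicate 2 (0.0657), Msx1 replicate 1 (0.0648), Msx1 replicate 2 (0.0845) or Msx1 replicate 3 (0.0564), in a range of adjusted p from 0.00801 to 0.0845 over 10 refits.

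Nrarp, a small ankyrin-repeat protein that Notch switches on and that dampens the pathway in return, read 0.478, 0.229 and 0.319 FPKM in control and 0.624, 0.531 and 1.09 FPKM in Msx1 libraries. All Msx1 values were above the control values, but Msx1 replicate 3 was much the highest. Its log2 change of 0.37 (SE 0.13) had the highest limma adjusted p of the 7 calls (0.0443). With a control mean of 0.342 FPKM, below the minimum, the gene entered the test only through the group where it was higher. The call was lost without control replicate 2 (0.31, adjusted p = 0.118), without control replicate 3 (0.36, adjusted p = 0.108) and without Msx1 replicate 1 (0.42, adjusted p = 0.0617), and without Msx1 replicate 3 the gene fell below the minimum level. It was also lost after quantile normalization (0.29, adjusted p = 0.118), without a filter (0.37, adjusted p = 0.0697) and with transcripts tested separately (0.37, adjusted p = 0.145), in a range from 0.00827 to 0.145 over 16 settings.

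Set against Hes1 in the same library, the ratios of Hey1, Heyl and Nrarp were all lower in Msx1 cells. Hes1 had the largest rise of the 10 genes, so a target that rose less also comes out lower in this ratio. Nrarp did so, although its own mean FPKM was 2.19-fold higher in Msx1 libraries. Hes1 was 7.53 times as abundant as Hey1 in control and 145 times in Msx1 libraries (geometric means), and 20.5 and 142 times as abundant as Heyl. For Nrarp the corresponding ratios were 17.9 and 35.4. Groups did not overlap for any of these 3 ratios, with exact two-sided permutation p = 0.1 for each, the least that this design allows (0.125 adjusted over 10). For Hey1 and Heyl this outcome was fixed by the levels themselves, Hes1 being higher and both lower without overlap. Their ratio tests therefore add nothing to those levels. Hes5, the Hes gene of neural progenitors, was listed at 0 in every library, Hey2 was at 0 except for 0.0173 FPKM in Msx1 replicate 2, and Hes7, the somite clock gene, was between 0.0470 and 0.368 FPKM with overlapping groups. Hes1 held 82.2 ± 1.14% of the summed FPKM of the 6 Hes and Hey targets (control) and 98.1 ± 0.490% (Msx1; n = 3 each).

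**Figure D3:**
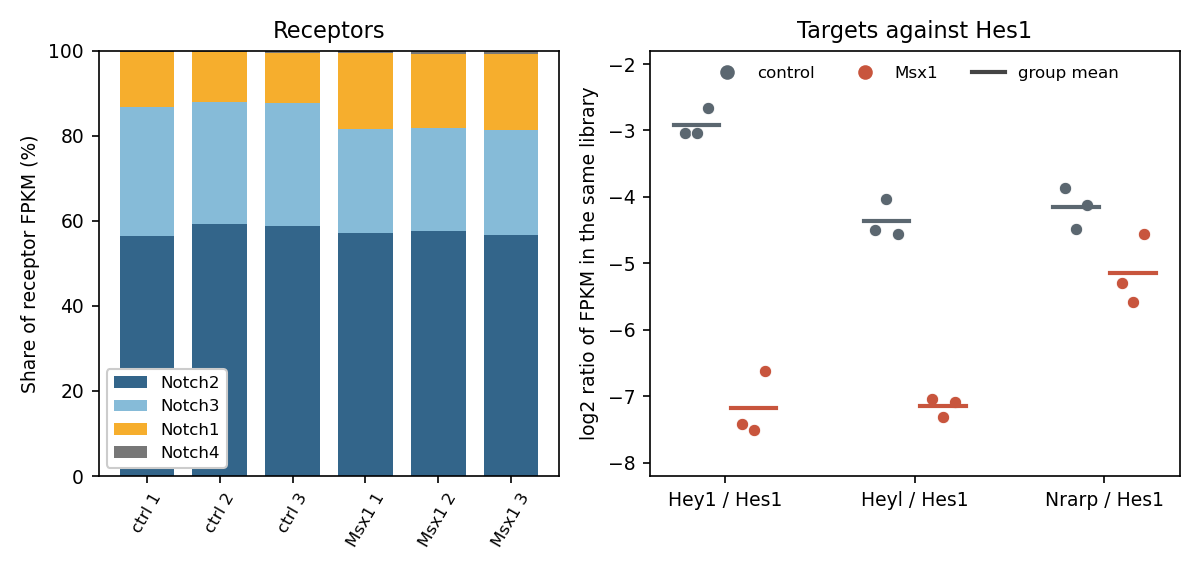
Left, the share in percent of each receptor in the summed receptor FPKM of each of the 6 libraries, with Notch1 at 11.7 to 12.9% in control and 17.4 to 17.9% in Msx1 libraries. Right, the log2 ratio of Hey1, Heyl and Nrarp to Hes1 within each library, with bars at the group means. All Msx1 points lie below all control points for each ratio, although Nrarp itself was higher in Msx1 libraries, by less than Hes1.

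The order of levels differed between the groups. From high to low, the control libraries had Notch2, Notch3, Notch1, Hes1, Jag2, Dll1, Jag1, Hey1, Nrarp and Heyl. In Msx1 libraries Hes1 stood in the second place above Notch3, Dll1 stood above Jag2, and Nrarp stood above Hey1. Neighbours in that order overlapped for Jag1 with Hey1 and Nrarp with Heyl in control, and for Dll1 with Jag2 and Hey1 with Heyl in Msx1 libraries. The other neighbours did not overlap in the group concerned.

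The genes with the pattern most like Hes1, by Euclidean distance of log2(FPKM + 1) values over the 6 libraries after each gene's mean was subtracted, were the cardiac troponin gene Tnnt2 (distance 0.113), the ephrin ligand gene Efnb1 (0.173) and the FGF receptor-like gene Fgfrl1 (0.198), out of 8846 genes compared, each averaging 5 FPKM or more. Tnnt2 averaged 11.6 ± 1.67 FPKM in control and 47.4 ± 2.63 FPKM in Msx1 libraries. Like Hes1, Tnnt2, Efnb1 and Fgfrl1 each had the highest control value in replicate 1. They were picked by distance over these same values, so that is not a separate result. The likeness to Hes1 rests mainly on the 2 group levels.

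Outside the 10, 61 further genes of the pathway were listed by role, of which 49 were tested: 20 rose, 5 fell and 24 were not called. Their median log2 change was 0.16, against -0.07 over all genes tested. Without control replicate 1, 8 fell and 23 rose. The higher share of these genes, 20 of 49, stands beside 22.0% of all genes tested, and the lower share, 5 of 49, beside 32.4%. This list too was chosen with earlier results of these data known.

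Of the 11 tested genes of receptor glycosylation, ectodomain cleavage and ligand endocytosis 3 rose and 0 fell. The higher share is near the 22.0% of all genes tested, and the 0 that fell stands beside 32.4% lower. Of 4 tested genes of receptor glycosylation 1 rose and 0 fell: Pofut1, which adds fucose to the Notch ectodomain, went from 15.9 ± 0.631 to 17.9 ± 0.113 FPKM (log2 change 0.16, limma adjusted p = 0.0317, lost in 7 of 18 settings, among them those without control replicate 3 (0.111), Msx1 replicate 1 (0.0966), Msx1 replicate 2 (0.0846) and Msx1 replicate 3 (0.0856) and with the replicate block (0.0529), in a range of 6.55e-04 to 0.111). Mfng, a Fringe sugar transferase chosen for mention after its values were seen, was at 0.0152 ± 0.0263 and 0.744 ± 0.125 FPKM, below the minimum for the main test. Furin, the convertase that matures Notch receptors, rose from 28.7 ± 0.956 to 40.4 ± 0.485 FPKM (log2 change 0.48, SE 0.05, limma adjusted p = 8.66e-05), while the sheddase genes Adam10 (29.3 ± 2.67 and 29.6 ± 1.49 FPKM) and Adam17 (27.3 ± 3.58 and 24.9 ± 0.362 FPKM) did not pass. Among 4 genes of ligand endocytosis 1 rose and 0 fell: the ubiquitin ligase gene Mib2 went from 12.6 ± 0.507 to 15.3 ± 0.594 FPKM (limma adjusted p = 0.00481). With transcripts tested separately the Mib2 call was lost (adjusted p = 0.243, range 9.05e-05 to 0.243 over 18 settings).

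Of the 7 gamma-secretase genes, whose complex makes the final cut in the membrane, 1 rose, 2 fell and 4 were not called. These shares are near those over all genes tested, 22.0% higher and 32.4% lower. Ncstn, the substrate-binding subunit nicastrin, rose from 55.6 ± 1.24 to 67.9 ± 0.300 FPKM (log2 change 0.28, SE 0.04, limma adjusted p = 0.00105). The 2 genes that fell encode forms of the scaffold subunit Aph1, Aph1a and Aph1c. The Aph1a call (limma adjusted p = 0.0325) was lost without the filter on low values (0.0538). Aph1c fell from 1.02 ± 0.124 to 0.576 ± 0.0433 FPKM (limma adjusted p = 0.00539). Aph1b and Aph1c are near-identical copies, so the division of reads between them is uncertain.

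In the nucleus, 5 of 9 tested genes of the Rbpj complex and its coactivators rose, 0 fell and 4 were not called. Over all genes tested, 22.0% rose and 32.4% fell. Rbpj itself went from 14.3 ± 0.871 to 18.7 ± 0.872 FPKM (log2 change 0.37, SE 0.06, limma adjusted p = 0.00175). The acetyltransferase gene Ep300 rose from 17.2 ± 1.56 to 25.4 ± 2.05 FPKM (log2 change 0.54, SE 0.08, limma adjusted p = 0.00101). Corepressors were divided, with 4 of 11 higher, 2 lower and 5 not called, beside the same 22.0% and 32.4%. One of the 4, Tle4 (0.260 FPKM in control, 0.991 FPKM in Msx1 libraries), entered the test only through the group where it was higher. Spen, which holds Rbpj target genes off in the absence of Notch, rose from 7.99 ± 0.686 to 14.5 ± 0.797 FPKM (log2 change 0.79, SE 0.07, limma adjusted p = 5.79e-05), and the Groucho-type gene Tle3 rose by 0.52 on the log2 scale. The histone deacetylase gene Hdac1 fell from 54.3 ± 3.17 to 39.8 ± 1.64 FPKM (log2 change -0.44, limma adjusted p = 4.66e-04). Rbpj, Tle3, Tle4, Hdac1, Aph1c, Adam10 and Adam17 were chosen for mention after their values were seen.

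Genes of receptor trafficking and turnover were higher in 4 of 7 tested and lower in 0, beside 22.0% and 32.4% of all genes tested. Dtx4, a Deltex ubiquitin ligase, rose from 3.61 ± 0.289 to 6.14 ± 0.225 FPKM (log2 change 0.63, SE 0.07, limma adjusted p = 1.55e-04). Numb, which antagonizes Notch at cell division, was uneven in the Msx1 group, at 4.87 FPKM in replicate 1 and 9.67 and 10.04 FPKM in replicates 2 and 3 against 7.95 to 8.58 FPKM in control, and was mentioned after its values were seen.

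Among the further genes tested, 2 passed with a log2(FPKM + 1) difference of 1 or more in size, a scale that understates low genes such as Tle4 (3.82-fold higher). Bhlhe40, a bHLH repressor related to the Hes family, rose from 29.4 ± 2.08 to 62.5 ± 1.22 FPKM (log2 change 1.07, SE 0.06, limma adjusted p = 3.49e-06). All 3 tested genes of that class rose, beside 22.0% of all genes tested. Among them was Hes6, which counteracts Hes1 and promotes muscle differentiation. Hes6 rose from 32.5 ± 4.38 to 42.5 ± 0.241 FPKM (limma adjusted p = 0.00652) and was mentioned after its values were seen. Dlk2, a non-canonical ligand related to Delta that is known to inhibit Notch, fell from 4.50 ± 0.911 to 1.50 ± 0.212 FPKM (log2 change -1.13, SE 0.12, limma adjusted p = 1.47e-04). Its paralog Dlk1 was listed at 0 in every library.

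**Figure D4:**
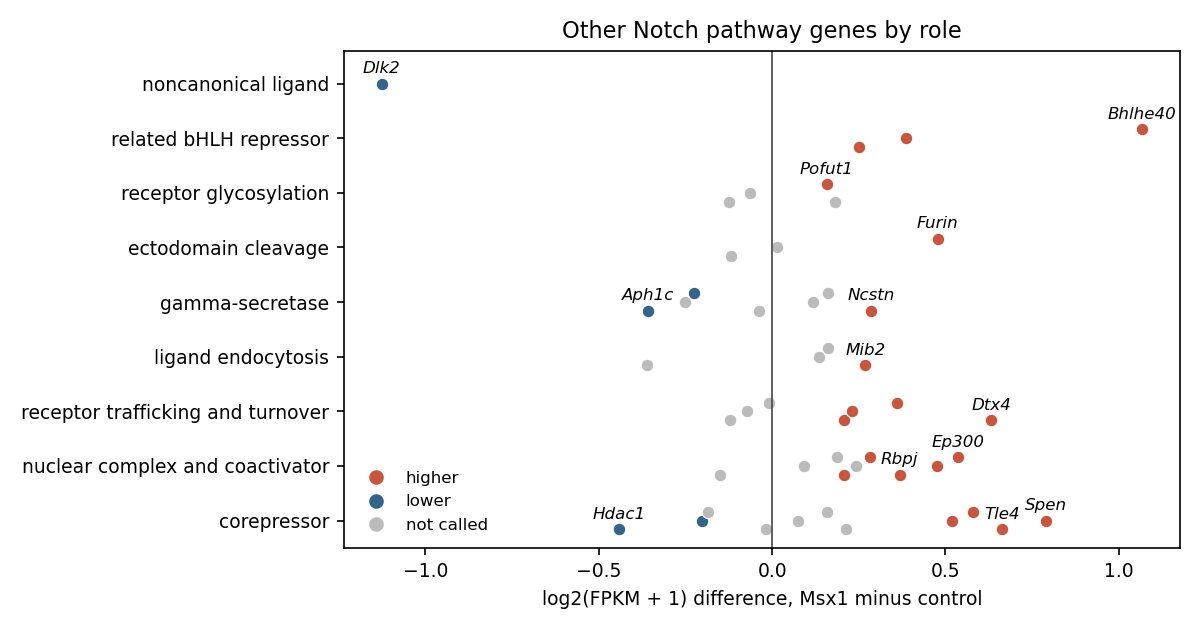
Difference in log2(FPKM + 1), Msx1 minus control, of the 49 tested further genes of the Notch pathway by role, coloured by whether they were called higher (20), lower (5) or not called (24). Bhlhe40 at 1.07 and Dlk2 at -1.13 mark the ends of the range, and vertical offsets only separate points.

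By RefSeq on GRCm38, Hes1 lies on chromosome 16 from 30065357 to 30067796, Hey1 on chromosome 3 from 8663359 to 8667038 and Heyl on chromosome 4 from 123233556 to 123249870. Notch1 spans 26457902 to 26503822 on chromosome 2, Notch2 98013538 to 98150367 on chromosome 3 and Notch3 32120820 to 32166896 on chromosome 17. Dll1 lies on chromosome 17 from 15367354 to 15376932, Jag1 on chromosome 2 from 137081451 to 137116520, Jag2 on chromosome 12 from 112907803 to 112929812 and Nrarp on chromosome 2 from 25180758 to 25183339. By GENCODE, genes on the opposite strand overlap Notch1, Notch3, Dll1 and Nrarp, and without strand their reads cannot be told apart. Of these, 0610009E02Rik, which overlaps Notch1, averaged 0.839 FPKM (control) and 0.767 FPKM (Msx1) in the table, far below Notch1. No annotated gene overlapped Hes1, Hey1 or Heyl.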

How the data were processed

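Per the labels' protocols, Trizol-extracted RNA went into NEBNext Ultra libraries. The authors deposited FPKM per RefSeq transcript, and Trimmomatic, HISAT2, StringTie and GRCm38 (mm10) are named, per the submitters' processing notes, without settings or use of strand. Columns headed vector were taken as the control samples of the same number.

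FPKM of 38468 transcripts were summed to 24809 genes (symbols from RefSeq for 38193 transcripts, GENCODE for 156, none for 119). Genes averaging at least 0.5 FPKM were tested with limma 3.58.1 (R 4.3.3, intensity trend, Benjamini-Hochberg over all genes tested) on log2(FPKM + 1), which understates changes of low genes. The fit was tested on values simulated as normal on the log2 scale and independent between libraries. Such values hold no culture or batch effect. The 10 ratios and shares were compared by exact permutation. Low values lay within 0.1 of whole multiples of a step in 44.6 to 49.5% of cases, so whole reads were not recovered.

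The members and lists were chosen with earlier results of these data known. Named were the 10 genes, every other receptor, ligand and target, and per further role the tested gene with the smallest adjusted p plus any called gene changed by at least 1. Alternatives were other pseudocounts (0.1, 0.5), filters, scalings, transcripts tested separately, no trend, sample weights, a replicate block, a loess correction for length and GC content, and leaving out each library. With transcripts tested separately, 17764 were fitted and adjusted together, and the most abundant tested transcript of each gene was kept. For a gene with 1 transcript this left the log2 change as it was and altered the variance fit and the adjustment.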

Additional observations from a re-analysis of the deposited data

How the results depend on the processing

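The calls of Hes1, Notch1, Notch2, Dll1 and Jag1 as higher held in all 18 alternative settings, and 5 to 8 of the 10 genes were called higher. The lower count of 0 became 2 without a filter on low values, where Hey1 and Heyl entered the test, and was 0 to 1 when a library was left out. Same-numbered libraries' deviations from their group means correlated at 0.0553, 0.226 and 0.0366, so the numbers were not taken to pair them; with the replicate block 7 of the 10 genes rose and 0 fell, and of the further pathway genes 19 rose and 7 fell. Of those further genes 3 fell with median-of-ratios scaling, with totals made equal apart from Msx1 or with transcripts tested separately, 11 with sample weights and 4 to 8 when a library was left out. Notch3 had a log2 change of -4.03e-06 with the length and GC correction, and the difference in the Dll1 to Jag1 ratio was 0.0240 on the log2(FPKM + 1) scale against -0.15; the cause was not tested. The Hey1 and Heyl differences were -1.67 and -0.47 with a pseudocount of 0.1, by construction of the scale. Their refits without a filter under other scalings or without a library were chosen after seeing the data. Hey1, Heyl and Nrarp rest on an estimated 7.69 to 59.8 fragments per library at the lower depth estimate, which limits them.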
